A study of Mus musculus with 30 samples.

Results

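Ovaries that carried much adipose tissue were compared with ovaries that carried little, among ovaries taken with little or no oviduct. The libraries were chosen by 2 measured transcripts. Libraries with at most 5000 normalized counts of Ovgp1, a glycoprotein gene of the oviduct, were kept. Those with Adipoq at or above 200 were called fat-rich and those with Adipoq below 50 fat-poor. Adipoq encodes adiponectin, a hormone made almost only by fat cells. This gave 6 fat-rich libraries from 6 mice and 11 fat-poor libraries from 9 mice, 17 of the 30 libraries of the series. Because Adipoq and Ovgp1 chose the groups, both were left out of the genes tested and of the counts of genes that passed.

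The series holds the left and right ovaries of 15 C57BL/6 mice. 7 mice had drunk 3% dextran sulfate sodium (DSS), a polysaccharide that injures the colon lining, for 7 days while sexually immature, and 8 were untreated littermates. All ovaries were collected after sexual maturity, and the libraries were made by CEL-Seq, which sequences the 3' ends of polyadenylated RNA. The fat-rich group held the right ovaries of DSS_16.3, DSS_10.4 and DSS_13.2 and the left ovaries of control_16.9, control_10.5 and control_15.4. Treatment and side therefore cannot be told apart inside it. The fat-poor group held 4 DSS and 7 control libraries, 5 of them left and 6 right. Both groups share the strain, and how closely the ovaries were trimmed is not given in the sources used here. Each library had 3095386 to 8564770 reads, with a median of 4305814. Values are normalized counts, that is reads divided by 1 size factor per library, and errors are SDs over libraries (n = 6 fat-rich and n = 11 fat-poor).

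The mouse ovary lies in a bursa, next to the gonadal fat pad. White fat cells store triglyceride in a single large droplet coated by perilipin 1, release it as fatty acids when adrenergic signals activate lipases, and secrete hormones such as adiponectin, adipsin and resistin. Steroid cells of the ovary also handle lipid, so some of the enzymes and transporters below are shared by both tissues. In whole-ovary RNA, fewer fat cells and less RNA per fat cell cannot be told apart.

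Adipoq, on chromosome 16 at 23146536 to 23158328 of GRCm38, was at 568, 564, 488, 465, 277 and 207 in the fat-rich libraries of DSS_16.3, control_16.9, control_10.5, DSS_10.4, DSS_13.2 and control_15.4. In the fat-poor libraries it lay between 6.76 and 40.4, with a median of 24.6. The nearest libraries outside the limits were the right ovary of DSS_15.1 at 154 and the left ovary of control_10.6 at 50.2. These values made the groups and were not tested. Ovgp1 was between 120 and 4798 in the fat-rich libraries and between 133 and 3064 in the fat-poor ones. The right ovary of DSS_13.2 had the 4798 counts and so lay just inside the limit. Plin1, perilipin 1, did not enter the choice. It was at 51.0, 59.9, 65.8, 62.6, 35.0 and 25.9 in those 6 fat-rich libraries, in the same order. In fat-poor libraries it ran between 11.04 and 27.3 with a median of 18.1. The ranges overlapped only through control_15.4 among the fat-rich and the right ovary of control_11.4 among the fat-poor. The label of adipose tissue thus held for its second marker in 5 of 6 fat-rich libraries without overlap.

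**Figure D1:**
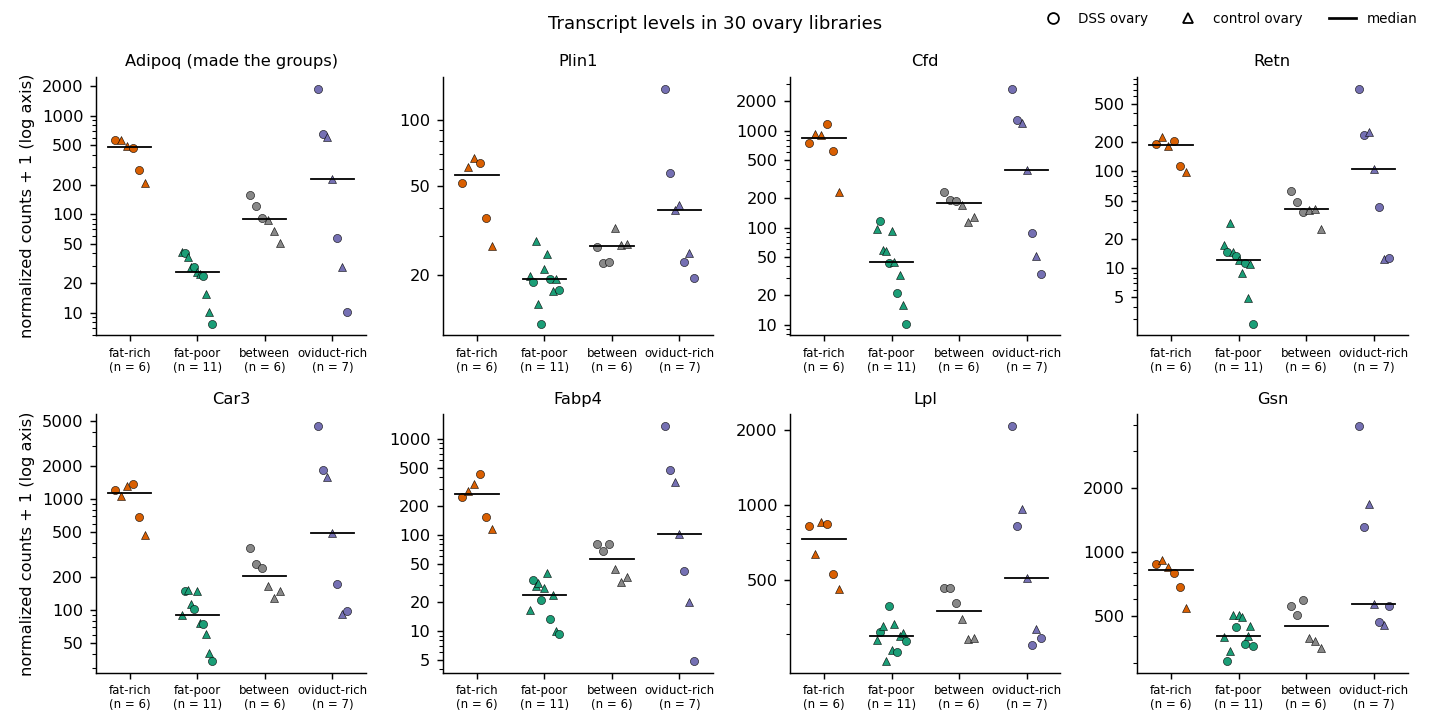
Normalized counts plus 1 (log axis) of 8 genes in each of the 30 libraries, by kind of library, with circles for DSS ovaries, triangles for control ovaries and a line at the median. Between libraries had Adipoq from 50 to under 200, and oviduct-rich libraries had more than 5000 counts of Ovgp1. Cfd, Retn, Car3 and Fabp4 separate the 6 fat-rich from the 11 fat-poor libraries without overlap, while Plin1 overlaps.

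Of the 14644 genes tested, 41 were higher in the fat-rich libraries at an adjusted p under 0.05 by limma, which is 0.28% of them. No gene was lower (0%). Without adjustment, 399 genes were higher and 328 lower at p under 0.05 by limma. A share of about 0.05 of the genes tested would pass that limit if none differed. edgeR's quasi-likelihood test called 0 lower genes and DESeq2 called 1. All 41 are protein-coding genes. 7 of them (Cidec, Tshr, Tusc5, Pnpla3, Fgf10, Ces1d and Hcar1) averaged under 5 counts in the fat-poor libraries and so reached the filter of a mean of 5 over all libraries through those with more fat. Their values below are a description. The log2 differences of all 41, fat-rich minus fat-poor on the log2(value + 1) scale, ran from 0.61 to 4.10 with a median of 1.67. Over all genes tested, the median was -0.00097 and 49.6% were positive. The groups did not overlap for 25 of the 41, and 25 of all genes tested (0.171%) were so separated in this direction. These 25 include Cidec, Tshr, Tusc5, Pnpla3 and Fgf10, which reached the filter through libraries with more fat, so the count is a description too. Since Adipoq made the groups, these p-values say which genes follow Adipoq between the libraries, and they are not evidence on what set the groups apart. With the mouse as a replicate block in the form of a fixed term, so that only differences between the ovaries of one mouse count, 16 genes were higher, 15 of them among the 41.

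**Figure D2:**
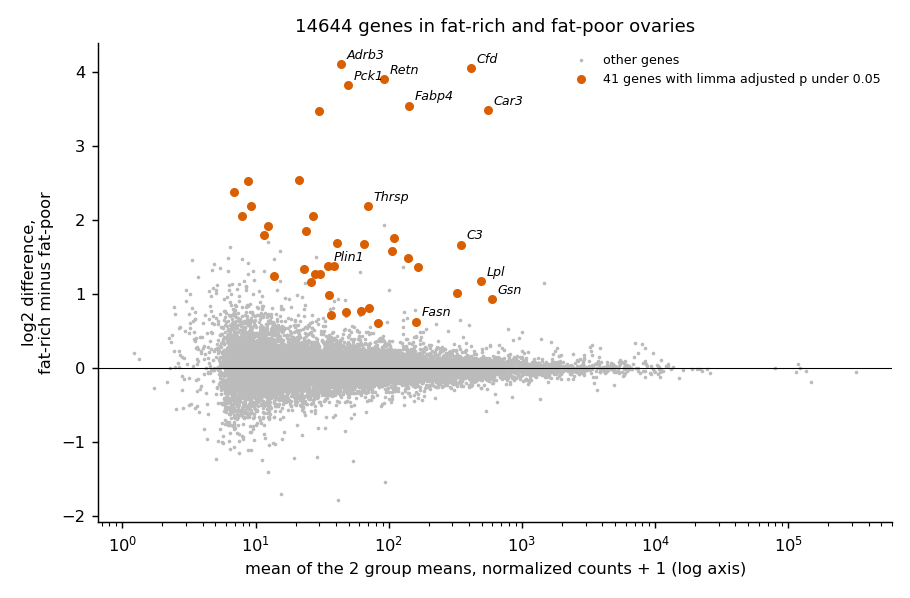
The log2 difference, fat-rich minus fat-poor, of 14644 genes against the mean of the group means (normalized counts plus 1, log axis). The 41 genes that passed lie above 0, from 0.61 to 4.10, and no gene passed below 0.

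Several of the 41 encode products that fat cells secrete. Cfd, adipsin, the serine protease that starts the alternative complement pathway, was at 749.8, 924, 909, 1175, 621 and 234 in the fat-rich libraries of DSS_16.3, control_16.9, control_10.5, DSS_10.4, DSS_13.2 and control_15.4. Its fat-poor libraries ran between 9.29 and 117, with a median of 43.0. The lowest fat-rich library, control_15.4, was above the highest fat-poor one, the left ovary of DSS_13.2. Cfd averaged 769 ± 321 counts in fat-rich and 52.9 ± 35.5 in fat-poor libraries, a log2 difference of 4.05 (SE 0.42, limma adjusted p = 5.6e-06). Retn, resistin, a hormone that mouse fat cells secrete, was at 192, 227, 183, 205, 113 and 97.8 in the same 6 libraries. In the fat-poor libraries it ran between 1.69 and 28.5 with a median of 11.19. The groups were apart, and the log2 difference was 3.90 (SE 0.34, limma adjusted p = 4.3e-07). Rbp4, the blood carrier of retinol, averaged 55.9 ± 15.2 in fat-rich and 19.9 ± 5.5 in fat-poor libraries (log2 1.39, limma adjusted p = 0.00051). Hp, haptoglobin, which binds free haemoglobin, averaged 42.2 ± 11.7 and 9.90 ± 5.45 (log2 2.06, limma adjusted p = 0.0010). C3, the central complement component that adipsin's pathway cleaves, averaged 541 ± 227 and 157 ± 38.9 (log2 1.67, limma adjusted p = 7.7e-05).

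Genes of the fat droplet and of fatty acid transport followed. Fabp4, the fatty acid carrier of fat cells, was at 248, 285, 336, 432, 153 and 115 in the fat-rich libraries, in the order above. It ran between 8.45 and 39.5 in the fat-poor ones, with a median of 22.5. The groups were apart, with means of 262 ± 117 and 22.4 ± 10.27 (log2 3.54, SE 0.30, limma adjusted p = 3.7e-07). Car3, carbonic anhydrase 3, an abundant protein of fat-cell cytosol, was at 1202, 1061, 1315, 1365, 695 and 476 in those 6 libraries. In the fat-poor ones it ran between 33.8 and 150.1, with a median of 90.0. No library of one group reached the other, and the log2 difference was 3.48 (SE 0.28, limma adjusted p = 3.1e-07). Cidec, which fuses lipid droplets, was at 50.3, 66.7, 44.2, 89.4, 39.7 and 31.8 in the fat-rich libraries and at 0 to 8.95 in the fat-poor ones. The groups did not overlap (log2 3.47). Plin1, with the values given above, had a log2 difference of 1.38 (SE 0.20, limma adjusted p = 0.00051).

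Lpl, lipoprotein lipase, which frees fatty acids from blood lipoproteins, averaged 688 ± 172 in fat-rich and 296 ± 42.6 in fat-poor libraries, without overlap (log2 1.17, limma adjusted p = 3.8e-06). Its lowest fat-poor library still had 234 counts. Cd36, a fatty acid transporter, averaged 90.7 ± 23.9 and 48.7 ± 8.94 (log2 0.81, limma adjusted p = 0.0089), with overlapping ranges. Tusc5, also named Trarg1, a partner of the insulin-regulated glucose transporter, was low, at 10.62 ± 5.98 in fat-rich and 1.09 ± 0.84 in fat-poor libraries (log2 2.39).

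Receptors of fat cells formed another group of the 41. Adrb3, the beta-3 adrenergic receptor through which noradrenaline starts lipolysis, was at 81.7, 59.9, 103, 156, 37.9 and 40.1 in the fat-rich libraries and between 0 and 14.9 in the fat-poor ones, with a median of 3.36. The groups were apart (log2 4.10, SE 0.50, limma adjusted p = 5.9e-05). A gene on the other strand overlaps Adrb3, and the strand setting of the counting is not given in the sources used here, so its level is uncertain. Hcar1, a lactate receptor that restrains lipolysis, averaged 16.2 ± 5.08 in fat-rich and 4.89 ± 3.33 in fat-poor libraries (log2 1.80). Ptger3, a prostaglandin E receptor, averaged 34.4 ± 11.3 and 15.7 ± 5.45 (log2 1.16, limma adjusted p = 0.00095). Tshr, the thyrotropin receptor, which fat cells carry besides the thyroid, averaged 13.503 ± 4.40 and 1.99 ± 1.85 (log2 2.53). Its deposited 3' end lay at -8999 nt from the annotated one, short of it, so its level is uncertain.

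Of 12 tested genes of lipolysis and triglyceride synthesis, 5 passed. Pck1, cytosolic phosphoenolpyruvate carboxykinase, which supplies glycerol phosphate in fat, was at 128, 105, 80.2, 164, 33.1 and 33.0 in the fat-rich libraries in the order above. It was between 1.01 and 13.43 in the fat-poor ones, without overlap (log2 3.82, SE 0.41, limma adjusted p = 9.4e-06). Gpd1, which makes glycerol 3-phosphate, averaged 34.5 ± 12.8 in fat-rich and 5.56 ± 3.34 in fat-poor libraries (log2 2.55, limma adjusted p = 0.00020). Dgat2, which joins the last fatty acid to triglyceride, averaged 158 ± 54.1 and 50.2 ± 17.2 (log2 1.58, limma adjusted p = 3.3e-05). The differences were smaller for Mgll, monoacylglycerol lipase, at 77.0 ± 10.9 and 44.5 ± 8.68 (log2 0.78), and for Acsl1, which activates fatty acids, at 58.7 ± 8.29 and 34.4 ± 8.26 (log2 0.76). Lipe and Pnpla2, the hormone-sensitive and adipose triglyceride lipases, did not pass. Lipe averaged 42.5 ± 11.9 in fat-rich and 34.8 ± 9.93 in fat-poor libraries, and Pnpla2 85.5 ± 19.7 and 58.0 ± 12.8. Gpam, which adds the first fatty acid to glycerol phosphate, averaged 8.14 ± 3.74 in fat-rich and 10.58 ± 3.42 in fat-poor libraries (log2 -0.44) and did not pass.

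In fatty acid synthesis, Thrsp, a nuclear protein that goes with lipogenesis, was at 126, 78.02, 172, 148, 92.7 and 58.9 in the fat-rich libraries and between 9.07 and 50.9 in the fat-poor ones. The groups did not overlap (log2 2.19, SE 0.27, limma adjusted p = 7.7e-05). Scd1, the desaturase that makes oleic acid, averaged 230.2 ± 104 and 96.4 ± 47.7 and overlapped (log2 1.37, limma adjusted p = 0.019). Pnpla3, a lipid droplet acyltransferase and lipase, averaged 14.0 ± 5.03 and 2.59 ± 1.89 (log2 2.19). Fasn, fatty acid synthase, averaged 190.2 ± 29.8 in fat-rich and 128 ± 32.7 in fat-poor libraries (log2 0.63, limma adjusted p = 0.045). Pcx, pyruvate carboxylase, averaged 99.0 ± 24.8 and 63.6 ± 15.0 (log2 0.61, limma adjusted p = 0.048). Acaca, Acly, Elovl6 and Scd2 did not pass, with log2 differences of 0.26, 0.14, 0.19 and 0.10.

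Other named genes of the 41 act in amino acid metabolism, matrix and growth factor signalling. Cdo1, cysteine dioxygenase, which starts taurine synthesis, was at 257, 213, 232, 221, 207 and 111 in the fat-rich libraries and between 49.8 and 99.6 in the fat-poor ones (log2 1.49, SE 0.15, limma adjusted p = 4.7e-06). Its groups were apart, with control_15.4 lowest by far among the fat-rich. Nat8l, which makes N-acetylaspartate in neurons and fat cells, averaged 36.1 ± 14.4 and 9.46 ± 6.93 (log2 1.85, limma adjusted p = 0.012). Inmt, a methyltransferase of indoleamines, averaged 155 ± 64.5 in fat-rich and 60.9 ± 59.0 in fat-poor libraries, with ranges of 61.5 to 239 and 8.10 to 172 that overlapped widely. Its log2 difference of 1.75 was only just past the threshold (limma adjusted p = 0.048), and the call was lost without any 1 of 9 mice. Dpt, dermatopontin, a matrix protein, averaged 60.2 ± 14.7 and 19.6 ± 8.65 (log2 1.69), and Fgf1, fibroblast growth factor 1, 97.2 ± 37.4 and 30.5 ± 12.4 (log2 1.67). Both overlap genes on the other strand, Fgf1 the gene Arhgap26.

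The remaining members included Gsn, gelsolin, an actin-severing protein, at 779 ± 141 in fat-rich and 414 ± 68.4 in fat-poor libraries without overlap (log2 0.93). Slc1a3, a glutamate transporter, was at 47.1 ± 13.1 and 22.5 ± 6.03. Cyp2e1, a cytochrome P450, was at 39.9 ± 17.9 and 14.5 ± 3.33. Slc36a2, an amino acid transporter, was at 32.1 ± 12.6 and 12.0 ± 4.99, and Fcor, a corepressor of Foxo1 in fat cells, at 41.7 ± 13.9 and 17.4 ± 7.18. Ces1d, a carboxylesterase, Fgf10, a fibroblast growth factor, and Acp5, tartrate-resistant acid phosphatase, averaged under 20 counts in both groups. The interferon-induced genes Ifi27l2a and Rsad2 were also among the 41. Ifi27l2a averaged 431 ± 116 and 219 ± 62.8 (log2 1.01), and Rsad2 44.3 ± 8.03 and 27.7 ± 6.18 (log2 0.71). In fat-poor libraries, 12 of the 41 averaged 50 counts or more. Of the 41, 15 overlap another annotated gene, 10 of them one on the other strand.

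3 mice gave a fat-rich and a fat-poor ovary, so the comparison could be read within a mouse. Cfd was at 621, 749.8 and 234 in the fat-rich ovaries of DSS_13.2, DSS_16.3 and control_15.4, against 117, 20.4 and 15.12 in their fat-poor ovaries. Car3 was at 695, 1202 and 476 in the fat-rich and 146, 73.8 and 40.3 in the fat-poor ovaries of these mice. Lpl was at 526, 822 and 458 against 305, 254 and 302. Of the 41 genes, 39 were higher in the fat-rich ovary of all 3 mice, and 12.3% of all genes tested were. Both exceptions were higher in 2 of the 3 mice. Cd36 was at 56.8 and 58.7 in the fat-rich and fat-poor ovary of DSS_13.2, and Ptger3 at 21.2 and 22.2 in those of control_15.4. These 3 pairs are part of the 17 libraries and so are no separate evidence.

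**Figure D3:**
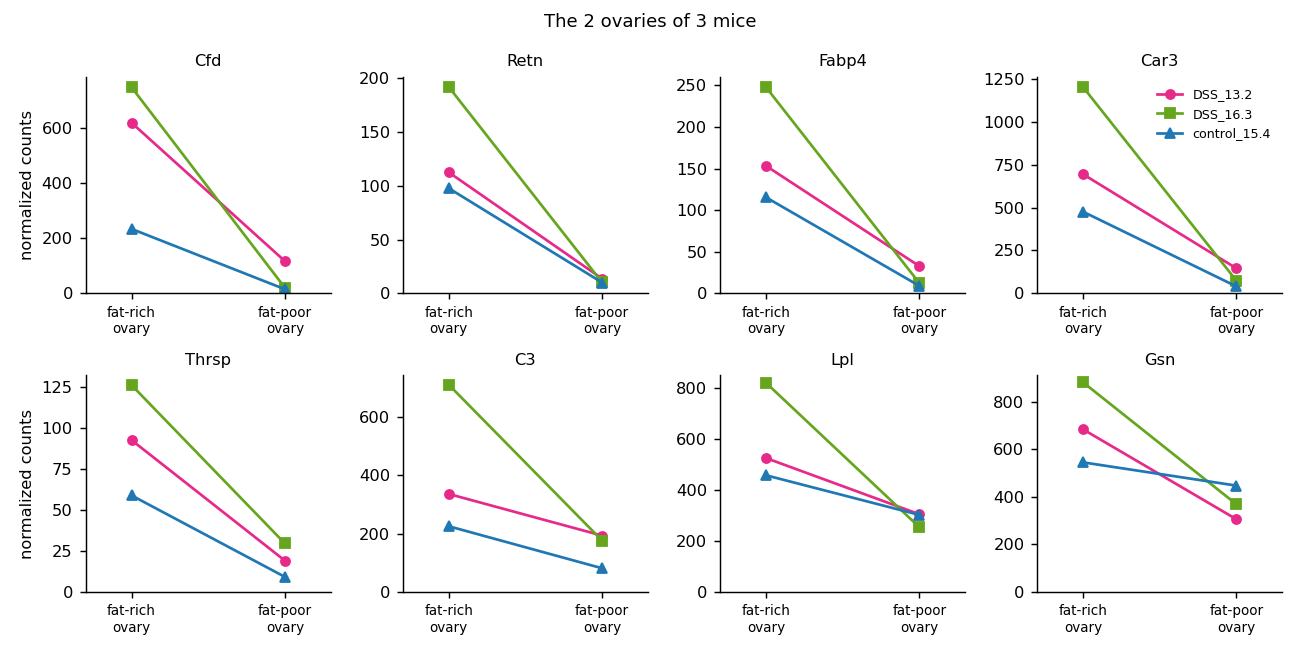
Normalized counts of 8 genes in the fat-rich (left) and the fat-poor ovary (right) of 3 mice, 1 line per mouse. Every line falls toward the fat-poor ovary, for Cfd by the most in DSS_16.3, at 749.8 against 20.4.

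The other 13 libraries, from 10 mice, were set aside by the same Adipoq and Ovgp1 values. 7 of the 10 mice also gave a library to the split, so these are other libraries but not all separate animals. 7 of them had more than 5000 counts of Ovgp1 and 6 had Adipoq between 50 and 200, and their Adipoq ran from 9.13 to 1874. The slope of each gene's log2(value + 1) on log2(Adipoq + 1) was fitted with log2(Ovgp1 + 1) as a covariate, and without treatment or side. All 41 genes had a positive slope, and 34 of the 41 passed at an adjusted p under 0.05 by limma, among them 5 of the 7 with low fat-poor means. Over all genes tested, 51.5% had a positive slope, 161 (1.1%) rose and 37 (0.253%) fell with Adipoq. The median slope of the 41 was 0.41, against 0.0022 for all genes. Fabp4 had a slope of 1.02 (SE 0.045, limma adjusted p = 2.5e-11), where a slope of 1 means a doubling for each doubling of Adipoq. Adrb3 had 0.99 (SE 0.13), Cfd 0.90 (SE 0.038), Cidec 0.83 (SE 0.095) and Retn 0.79 (SE 0.047). The slopes of Lpl and Gsn were 0.36 (SE 0.038) and 0.33 (SE 0.051). Of these, Lpl had 234 and Gsn 305 counts in the lowest fat-poor library, and Cidec and Adrb3 were at 0 in theirs.

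The 7 of the 41 that did not pass there were Tusc5, Fgf10, Dpt, Acp5, Fasn, Pcx and Rsad2. For Fasn and Pcx the adjusted p was 0.052 and 0.061. Rsad2 stood apart, with a slope of 0.0094 (SE 0.073, limma adjusted p = 0.97). The left ovary of DSS_11.2 had the most Adipoq and the most Ovgp1 of the 30 libraries, at 1874 and 66716. Cfd was at 2688 and Car3 at 4527 in it, above every fat-rich library. Without it, 17 genes rose instead of 161, and 16 of these 17 were among the 41, of which 40 kept a positive slope. Without control_10.5, control_13.4 or DSS_15.1 the count was 79, 65 and 50, and without control_16.9 it was 321. In the 6 libraries with Ovgp1 at or below 5000, whose Adipoq spans only 50.2 to 154, 35 of the 41 slopes were positive and 2 passed. In the 7 oviduct-rich libraries alone 40 were positive and 4 passed.

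**Figure D4:**
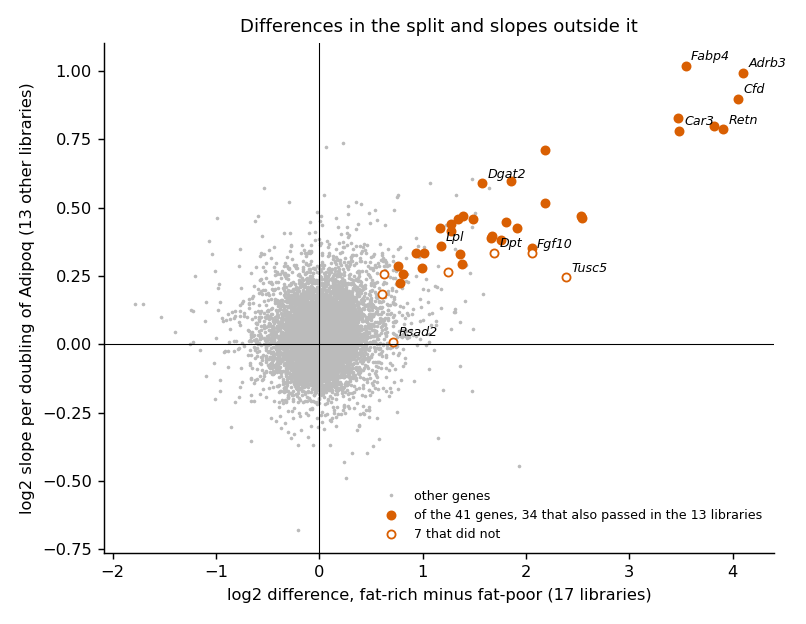
The log2 slope on Adipoq in the 13 other libraries (log2 units per log2 unit of Adipoq) against the log2 difference, fat-rich minus fat-poor, for 14644 genes. The 41 genes lie above 0 on both axes, and 34 of them (filled) passed on both.

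By a rule of likeness, the 10 genes with the highest correlation with Adipoq over these 13 libraries were Fabp4, Cfd, Retn, Car3, Rbp4, Cidec, Cdo1, Mlxipl, Lpl and Flt3l, with Pearson's r between 0.908 and 0.989 and Spearman's rho between 0.874 and 0.984. Without the 2 libraries farthest from the median of Adipoq, the left ovary of DSS_11.2 and the right ovary of DSS_11.1, r was between 0.812 and 0.988. The libraries share mice and depth, so these values are a description. Of the 10, Mlxipl, a carbohydrate-responsive transcription factor, and Flt3l, a growth factor of dendritic cells, did not pass in the split, with log2 differences of 0.20 and 0.19.

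The adipose difference was also compared between DSS and control mice. No gene's difference between fat-rich and fat-poor libraries depended on treatment at an adjusted p under 0.05 by limma. An unadjusted p under 0.05 was seen for 838 genes, where a share of about 0.05 of all genes would pass without any dependence. Among the 41, the smallest adjusted p for this dependence was 0.44, for Inmt. With 3 DSS right and 3 control left ovaries in the fat-rich group, treatment and side move together in that test. DSS ovaries alone gave 21 higher genes and control ovaries alone 8, and all 41 had a positive difference in each. Srd5a1, the steroid 5-alpha reductase, averaged 277 ± 63.8 in fat-rich and 330.2 ± 63.6 in fat-poor libraries (log2 -0.21, limma adjusted p = 0.99).

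The gene lists were chosen with earlier results of these data known, so their counts are a description and no independent support. Over all genes tested, 49.6% were higher in fat-rich libraries and 0.28% passed. Of the 19 genes of adipocyte identity and lipid droplets, 15 were tested. All 15 were higher, with a median log2 difference of 1.42, and 9 passed, Cidec and Tusc5 with their low fat-poor means among them. Among those that did not pass, Slc2a4, the insulin-regulated glucose transporter, averaged 10.7 ± 5.70 in fat-rich and 3.07 ± 1.59 in fat-poor libraries (limma adjusted p = 0.15), and Acvr1c, an activin receptor, 12.4 ± 8.17 and 3.25 ± 1.26 (limma adjusted p = 0.079). The fat-cell transcription factors Pparg and Cebpa had log2 differences of 0.31 and 0.26 and did not pass. Pparg was already at 30.9 ± 10.9 and Cebpa at 119 ± 38.1 in fat-poor libraries. Mrap, the melanocortin receptor accessory protein, was at 612 ± 158 and 601 ± 155. Plin4, a lipid droplet protein, was at 255 ± 49.6 and 198 ± 103 and did not pass. In the other libraries, 8 of the 15 rose with Adipoq at an adjusted p under 0.05 by limma and 0 fell. Slc2a4, Acvr1c and Tusc5 had positive slopes there without passing (0.43, 0.29 and 0.24). The slopes of Plin4, Mrap, Pparg and Cebpa were -0.068, -0.12, -0.048 and -0.00046, so the list did not follow Adipoq as a whole. Of the 4 list members below the filter of a mean of 5, Adig, adipogenin, averaged 6.77 in fat-rich and 0.34 in fat-poor libraries and was above 0 in 6 of 6 and 4 of 11. Sncg, gamma-synuclein, averaged 6.03 and 1.04, Aqp7, a glycerol channel, 0.95 and 0.22, and Cidea 3.02 and 1.94.

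Of lipolysis and triglyceride synthesis, 12 of 14 genes were tested, 11 were higher and 5 passed (median log2 0.52). Of fatty acid synthesis, all 12 were tested, 11 were higher and 4 passed, Pnpla3 with its low fat-poor mean among them (median 0.20). Of adipokines and adipose secreted factors, 10 of 12 were tested, 9 were higher and 3 passed (median 0.79). Leptin, Lep, was near 0 in both groups, at 0.32 and 0.29. Retnla, a resistin-like protein, averaged 32.3 ± 20.2 in fat-rich and 12.9 ± 4.801 in fat-poor libraries and did not pass (limma adjusted p = 0.15). In none of the other 22 lists did a gene pass in the split. The genes of brown and beige fat had a median of 0.18 over 6 tested, and Ucp1, the uncoupling protein that defines brown fat, was at 0.20 and 0.24. Fabp3 and Ppargc1a had the smallest p of that list, with log2 differences of 0.32 and -0.32. Adipose progenitor and stroma genes had a median of 0.070 over 14, with Ly6a at 246 ± 54.7 and 204 ± 38.2 and Cd55 at 62.5 ± 8.59 and 53.6 ± 14.9. The receptors of adipokines and insulin had a median of -0.013 over 9, 4 of them higher and 5 lower, with Adipor2, an adiponectin receptor, at 159 ± 8.33 and 140.3 ± 12.2 and Cmklr1, the chemerin receptor, at 34.1 ± 8.56 and 26.4 ± 7.55. Lepr, the leptin receptor, was at 18.0 ± 4.13 in fat-rich and 22.1 ± 8.41 in fat-poor libraries (log2 -0.23). Lipid-handling genes shared with steroid cells had a median of 0.14 over 11, with Apoe at 1891 ± 496 and 1428 ± 187 and Fabp5 at 768 ± 319 and 585 ± 139.

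**Figure D5:**
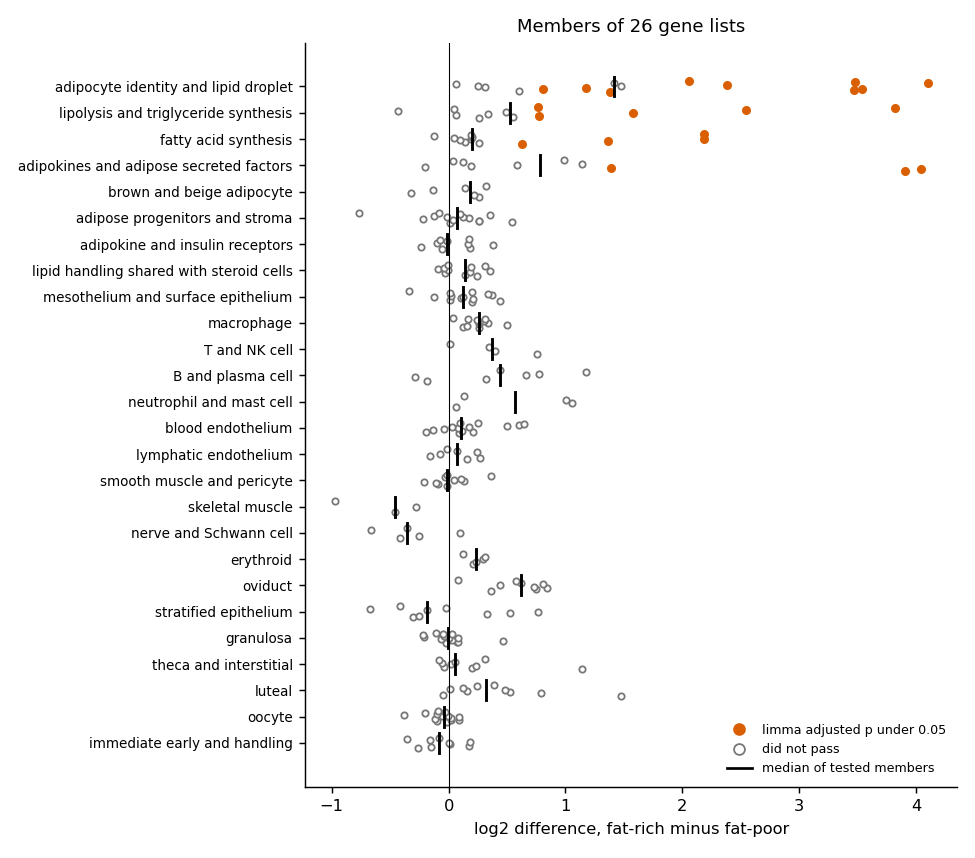
The log2 difference, fat-rich minus fat-poor, of each tested member of 26 gene lists, filled where limma's adjusted p was under 0.05, with a bar at the list's median. Filled points occur in the 4 fat lists at the top, with 9, 5, 4 and 3 of them.

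Markers of other cells and tissues that could come with fat were examined the same way. Medians are over the tested members, while sums also include members below the filter of a mean of 5. All 12 macrophage genes tested were higher, with a median of 0.26, and none passed. The sum of all 14 macrophage members was 1459 to 2474 in fat-rich and 1209 to 1712 in fat-poor libraries. C1qa, a complement component of macrophages, averaged 141 ± 19.99 and 110.1 ± 12.0 (limma adjusted p = 0.26), and C1qc 644 ± 152 and 502 ± 100.4. B and plasma cell genes had a median of 0.44 over 7, with sums of 117 to 311 and 54.4 to 172, and Jchain and Igkc had the smallest p (log2 1.18 and 0.78). T and NK cell genes had a median of 0.37 over 4 and sums of 37.9 to 103 and 28.7 to 59.2, with Trac at 0.75 and Trbc2 at 0.40. Neutrophil and mast cell genes had a median of 0.57 over 4, with Cpa3 at 1.05 and Cma1 next. Their sums over all 7 members, S100a8 and S100a9 included, were 31.8 to 63.6 and 31.0 to 137. The neutrophil genes S100a8 and S100a9, below the filter, averaged 1.22 and 1.64 in fat-rich libraries, against 4.89 and 9.20 in fat-poor libraries. Their fat-poor values ran from 0 to 34.5 and from 0 to 61, and their fat-rich values from 0 to 2.36 and from 0 to 4.97. The fat-poor means thus lean on the highest values, and neither gene was tested. Erythroid genes had a median of 0.23 over 5, with sums of 2887 to 16779 and 2116 to 12427 and Hbb-bt and Hbb-bs at 0.31 and 0.29.

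The 9 oviduct genes were all higher without passing, with a median of 0.62, Tppp3 at 122 ± 46.8 and 71.7 ± 19.6, Tekt1 at 0.73 and Fam183b at 0.57. Their sum was 94.9 to 711 in fat-rich and 63.7 to 239 in fat-poor libraries. Some fat-rich means lean on the highest values. Sntn, Foxj1 and Ccdc153 reached 63.4, 26.5 and 241 there, with fat-rich medians of 0.565, 1.5 and 17.5. The fat-poor medians of these genes were 0.53, 1.01 and 10.57. Tppp3 had medians of 124 in fat-rich and 63.8 in fat-poor libraries. With the limit on Ovgp1 at 1000 in place of 5000, which leaves out the right ovaries of DSS_13.2 (fat-rich) and control_11.4 (fat-poor), 36 of the 41 still passed. Mesothelium and surface epithelium genes had a median of 0.12 over 13, with Upk3b at 0.44 and Gpm6a at 0.34 and sums of 3355 to 4900.4 and 3485 to 4469. Blood endothelium genes had a median of 0.11 over 14, with Rbp7 and Cdh5 at 0.64 and -0.19, and lymphatic endothelium genes 0.068 over 7, with Lyve1 and Ccl21a at 0.27 and 0.24. Smooth muscle and pericyte genes had a median of -0.015 over 10, with Synpo2 and Cnn1 at 0.36 and -0.21. Skeletal muscle genes had -0.46 over 3, with Tnni2 at -0.97 and Mylpf at -0.46. Nerve and Schwann cell genes had -0.35 over 5, with Th at -0.66 and Chga at -0.35. Stratified epithelium genes had -0.18 over 9, 6 of them lower and 3 higher, with Trp63 and Sbsn at -0.68 and -0.42 and Krt6a, Krt14 and Krt13 at 0.76, 0.53 and 0.33. In the 13 other libraries, Upk3b, Aqp1 of blood endothelium and Retnlg, a neutrophil gene, rose with Adipoq. Their slopes were 0.19, 0.22 and 0.72 (limma adjusted p = 0.034, 0.042 and 0.049). Retnlg averaged only 5.33 counts over all libraries. No other tested member of these cell and tissue lists rose or fell there at an adjusted p under 0.05 by limma. The part of these cells in the result was not tested.

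No tested member of the granulosa, theca, luteal, oocyte or immediate early lists passed in the split. Granulosa genes had a median of -0.0092 over 14, with Amh at 1643 ± 463 in fat-rich and 1641 ± 480 in fat-poor libraries, Fst at 101 ± 17.2 and 118 ± 19.0, and Hsd17b1 at 61.5 ± 15.5 and 69.7 ± 12.7. Theca and interstitial genes had a median of 0.053 over 9, with Ephx2 at 3765 ± 628 and 2986 ± 614 and Cyp17a1, the androgen-making enzyme, at 1941 ± 1353 and 1008 ± 710.0. The Cyp17a1 means lean on few libraries. The left and right ovaries of control_15.3 (fat-poor) were at 33.15 and 44.7, and the right ovary of DSS_10.4 (fat-rich) at 4533. Its medians were 1460 in fat-rich and 1011 in fat-poor libraries. Oocyte genes had a median of -0.042 over 14, with Nobox at 19.5 ± 5.61 and 25.6 ± 7.57 and Bmp15 at 428 ± 62.7 and 460.5 ± 110.3. Immediate early genes had a median of -0.084 over 9, with Jun at 374 ± 61.6 and 423 ± 71.6 and Hspa1a, a heat shock gene, at 29.0 ± 17.6 and 36.7 ± 14.5. Of the luteal genes 9 of 10 were higher, with a median of 0.32. Akr1c18, which inactivates progesterone as the corpus luteum regresses, averaged 224 ± 157 in fat-rich and 66.2 ± 35.8 in fat-poor libraries and did not pass (log2 1.48, limma adjusted p = 0.10). Onecut2, a transcription factor, averaged 206 ± 115 and 108 ± 49.9 and did not pass. In the 13 other libraries the slope of Akr1c18 was -0.17 (limma adjusted p = 0.50), the other direction. There 3 granulosa genes fell with Adipoq, namely Cyp19a1, aromatase (slope -0.40), Inhba (-0.24) and Inha (-0.15), which had log2 differences of 0.46, -0.07 and 0.03 in the split.

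Promoters are shown since the 41 genes differed in the same direction. RefSeq's table of promoters on GRCm38.p6 held 25 of the 41 genes, and the 250 bases before each transcript start were searched on both strands for 12 motifs, after the levels were known. The C/EBP-like motif TTNNGCAA was in 5 of the 25 genes (20%: C3, Cidec, Dpt, Plin1 and Rbp4) and in 10.8% of all 27025 genes. Its stricter form TTGCGCAA was in 0 of 25 and 0.185% of all genes, and the looser TTNCNNAA, which contains that strict form, in 52% and 40.3%. The direct repeat bound by PPAR and RXR was in 0 of 25 and 0.4% of all, and the nuclear receptor site AAAGGTCA in 0 and 1.55%. TGACTCA was in 12% of the 25 and 5.16% of all, TGACNTCA in 8% and 8.55%, CACGTG in 8% and 6.86%, and an SREBP-like site in 0 and 3.04%. TATAAA was in 20% and 14.3%, the longer TATAAAA, which contains it, in 8% and 5.85%, and GGGCGG in 48% and 35.4%. The shares were higher in the 25 genes for 7 of the 12 motifs, and no difference was tested. The following promoters, 5' to 3' on the gene's strand, were chosen after the matches were seen: Plin1 at chr7:79732777-79733026 (minus strand), with 2 matches, the downstream promoter of Cidec at chr6:113434765-113435014 (minus strand), with 1 match, and Cfd at chr10:79890603-79890852 (plus strand), with none. The upstream promoter of Cidec, at chr6:113435761-113436010, held 0 matches. A gene was counted if any of its promoters held the motif. Capitals mark TTNNGCAA on either strand.
Plin1: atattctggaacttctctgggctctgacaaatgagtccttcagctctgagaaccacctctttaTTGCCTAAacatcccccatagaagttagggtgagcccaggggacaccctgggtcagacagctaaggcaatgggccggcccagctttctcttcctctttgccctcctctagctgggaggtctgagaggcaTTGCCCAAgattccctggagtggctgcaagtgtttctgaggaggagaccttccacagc
Cidec: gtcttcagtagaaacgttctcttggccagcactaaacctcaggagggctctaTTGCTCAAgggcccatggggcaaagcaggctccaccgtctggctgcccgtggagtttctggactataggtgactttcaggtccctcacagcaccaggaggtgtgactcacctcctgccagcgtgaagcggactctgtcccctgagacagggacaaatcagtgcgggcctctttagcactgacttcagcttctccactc
Cfd: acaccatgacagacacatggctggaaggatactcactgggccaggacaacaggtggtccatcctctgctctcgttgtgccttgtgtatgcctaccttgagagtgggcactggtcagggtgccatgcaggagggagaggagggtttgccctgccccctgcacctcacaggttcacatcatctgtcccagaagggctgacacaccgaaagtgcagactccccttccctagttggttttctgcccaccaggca
The Plin1 matches begin 187 and 58 bases before the transcript start and the Cidec match 198 bases before it. The log2 differences were 1.38 for Plin1, 3.47 for Cidec and 4.05 for Cfd, and whether the motif bears on them was not tested.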

How the data were processed

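RNA of 30 ovaries was sequenced by CEL-Seq, with 3 primers per sample, per the labels' protocols. TopHat, HTSeq and DESeq2 and the build GRCm38.p5 were used, per the submitters' processing notes; versions, the strand setting and molecular identifiers are not given in the sources used here. The authors deposited a signal per gene: normalized counts, which the values show to be reads divided by 1 size factor per library. Dividing by that step gave whole reads for 99.9% to 100% of values within 0.0051, and in 3 libraries whose step lay within 1% of 1 it was found from higher values. The deposited 3' ends lay 300 nt past those of GENCODE M21 in 35 of the 41 genes higher in fat-rich ovaries. The end of Tshr lay at -8999 nt, short of the annotated end, and that of Pnpla3 2576 nt past it.

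From these values, limma 3.58.1 (R 4.3.3, two-sided, with a trend) fitted log2(value + 1), a scale that understates changes of low genes, for 14644 of 50600 genes that averaged 5 or more across all 30 libraries, with Benjamini-Hochberg adjustment over all genes and a threshold of 0.05. In the split, treatment and side were covariates. In the other libraries log2(Ovgp1 + 1) was the only covariate, so treatment and side were not adjusted for there. The mouse was a block in both fits (correlation 0.182 in the split, -0.067 in the other libraries), since the labels give the left and right ovary of each numbered mouse. Because ovaries of 1 mouse are paired by that number, a fit with the mouse as a fixed term was an alternative. edgeR 4.0.16 and DESeq2 1.42.0 were run on the recovered reads without the mouse correlation. The fits were also run on simulated counts. These were drawn without a correlation between the ovaries of a mouse, so that run cannot check the block.

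The members, lists and rules were chosen with earlier results of these data known. The rule for named genes took Plin1 and Adipoq, the 20 genes with the largest positive difference among those that passed with a mean of at least 20, at most 10 negative ones (there were none), 2 to 4 members with the smallest p of each list, and the 10 genes most like Adipoq in the other libraries. Genes named beyond it, such as the rest of the 41, Ucp1 and Mrap, were chosen after their values were seen. A few members that this rule picked are left out of the text.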

Additional observations from a re-analysis of the deposited data

Results flagged for a closer look

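Cdo1, cysteine dioxygenase, had 1 low library among the 6 fat-rich ones. The left ovary of control_15.4 was at 111 normalized counts and the nearest other library, the right ovary of DSS_13.2, at 207, a gap of 0.66 of the group's range. The same library had the lowest Adipoq of the group, at 207. The rule was applied to the fat-rich values of the 20 named genes and singled out only Cdo1. Chance alone would single out about 1 in 20 groups in this way.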

How the results depend on the processing

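The 41 genes higher in fat-rich ovaries had a positive difference under every alternative tried for the split (34 of them remained with a filter of a mean of 20). The total of higher genes was 21 in DSS ovaries alone, 8 in control ovaries alone, 6 in left and 9 in right ovaries alone, where fewer libraries were compared, and 16 with the mouse as a fixed replicate block. Of these totals, 21, 7, 5, 9 and 15 were among the 41. The total was 35 with no replicate block, all among the 41, and 29 to 42 when each mouse was left out in turn, of which 28 to 38 were among the 41. With no filter it was 33, of which 25 were among the 41, and Scd1, Fgf1, Nat8l and Inmt, of the 20 named, lost their calls. Genes lower in fat-rich ovaries numbered 1 with Adipoq at or above 400, with DESeq2, in DSS ovaries alone or with Ovgp1 at or below 1000, 3 in control ovaries alone and with the fixed replicate block, 2 in left ovaries alone, and 0 to 2 without 1 mouse. Genes rising with Adipoq in the other libraries numbered 350 without the Ovgp1 covariate, 18 with no filter, 244 with a pseudocount of 5, 4 in the oviduct-rich libraries alone (where no correlation of a mouse's ovaries could be estimated and the block was dropped), 4 without them, and 17 to 321 without 1 mouse. Falling genes numbered 162, 2, 56, 0, 3 and 2 to 93 in the same settings. The causes were not tested. Of the 20 named differences, none reversed, and Car3, Fabp4 and Retn passed under every setting. Inmt, Nat8l and Scd1 lost the call without 9, 3 and 4 of the mice, and the other 17 passed whichever mouse was left out. Leave-one-out fits used the correlation of the full fit. At this depth, genes averaging under 5 counts, such as Adig, were not tested.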

Other observations

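Of the 161 genes that rose with Adipoq in the 13 libraries outside the split, 127 had not passed in the split, and 118 of the 161 had a positive difference there. The following were chosen after their values were seen. Slc1a5, a glutamine transporter, had a slope of 0.28 (limma adjusted p = 0.00015) and averaged 151 ± 28.6 counts in fat-rich and 101 ± 19.3 in fat-poor libraries, where the limma adjusted p was 0.11. Slopes with an opposite sign in the split were seen for Alcam, a cell adhesion molecule (slope 0.27, log2 difference -0.16), Ncam1, a neural cell adhesion molecule (0.30 and -0.08), and Hoxb7, a homeobox factor (0.36 and -0.17). B3galt2, a galactosyltransferase, rose with Adipoq (slope 0.48, limma adjusted p = 0.011) and averaged 41.04 counts in fat-rich and 13.402 in fat-poor libraries without passing there (log2 1.51, limma adjusted p = 0.16). Of the 37 genes that fell with Adipoq in those libraries, 23 had a negative difference in the split.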
